A study of Mus musculus with 14 samples.

Results

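Microglia signature genes are transcripts used to tell microglia, the resident macrophages of the brain and spinal cord, from macrophages that enter the tissue from the blood. The 6 genes described here are P2ry12, Tmem119, Sall1, Siglech, Gpr34 and Olfml3. They were chosen by symbol and not by a rule on their levels, but with earlier results of these data known. All 6 were found among the 19940 genes of the deposited table. A filter on low values, a normalised count of at least 10 in at least 7 libraries, was passed by 5 of them, and Sall1 did not pass. It kept 12096 genes in all. The normalised count is the deposited log2 value with its transformation undone. Log2 differences are those of the deposited values, a scale on which scarce genes show smaller differences.

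RNA was sequenced from macrophages sorted as monocyte-derived from the central nervous system of bone marrow chimeras during peak experimental autoimmune encephalomyelitis, an induced model of multiple sclerosis. Hosts were irradiated with 2 doses of 5.5 Gy, 24 h apart, and then received 2.5 M marrow cells (M for mega) of each genotype. The wt libraries (7) came from cells of CD45.1 donors. The mCAT libraries (7) came from cells of CD45.2 donors, whose titles give CCR2creERT2/+ and mcat lsl/wt, an inducible Cre recombinase at the Ccr2 gene and a Cre-dependent mitochondrial catalase. Tamoxifen is the treatment given for every library, wt included. Cells were sorted by donor marker, and no source used here gives the CD45 allele of the hosts. Library codes begin with C1 (8 libraries, 4 of each genotype) or C2 (6 libraries, 3 of each), and what this prefix stands for is not stated. The rest of a code gives 8 stems, 6 of which hold a wt and an mCAT library. No label says that libraries came from separate animals, so p-values measure only the spread between these samples, which may be technical.

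Microglia arise from yolk sac progenitors and renew themselves in the tissue, whereas monocyte-derived macrophages come from bone marrow. Signalling by TGF-beta and by the receptor encoded by Csf1r, with the transcription factors PU.1 (Spi1), Irf8, Mef2c and Sall1, maintains the microglial state. Whole-body irradiation leaves many host microglia in place. Marrow-derived cells that stay in the tissue can take up part of the microglial programme, and Sall1 is among the genes they acquire least. Several signature genes have other sources: Siglech is also a gene of plasmacytoid dendritic cells, P2ry12 of platelets and Olfml3 of fibroblasts and pericytes.

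Promoters from RefSeq on GRCm38.p6, a build other than that named for the deposited values (GRCm39), were matched for 4 of the 6 genes: P2ry12, Olfml3, Siglech and Sall1. Those of Olfml3, P2ry12 and Siglech are shown because the 3 genes, described below, had unlike patterns between libraries. Each is the 250 bases before the annotated start, read 5′ to 3′ on the gene's strand. The windows are chr3:103738002-103738251 (minus strand) for Olfml3, chr3:59262986-59263235 (minus strand) for P2ry12 and chr7:55767934-55768183 (plus strand) for Siglech. Capitals mark matches to CAGAC, a core of SMAD binding sites, on either strand (GTCTG).
Olfml3: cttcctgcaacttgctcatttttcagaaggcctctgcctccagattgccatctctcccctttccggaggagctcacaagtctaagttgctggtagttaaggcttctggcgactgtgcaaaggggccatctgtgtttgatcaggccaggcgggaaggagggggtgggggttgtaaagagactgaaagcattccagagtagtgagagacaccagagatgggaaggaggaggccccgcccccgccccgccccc
P2ry12: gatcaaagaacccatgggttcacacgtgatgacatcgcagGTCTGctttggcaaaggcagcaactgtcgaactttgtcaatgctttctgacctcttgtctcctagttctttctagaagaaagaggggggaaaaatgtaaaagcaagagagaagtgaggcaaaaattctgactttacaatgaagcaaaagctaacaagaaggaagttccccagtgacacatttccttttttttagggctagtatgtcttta
Siglech: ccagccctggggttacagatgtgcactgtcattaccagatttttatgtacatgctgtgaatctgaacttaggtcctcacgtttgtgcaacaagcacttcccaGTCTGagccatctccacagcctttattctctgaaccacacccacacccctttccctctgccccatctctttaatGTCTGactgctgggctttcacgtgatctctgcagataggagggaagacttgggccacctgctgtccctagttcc
CAGAC matched 2 times in the Siglech window, 1 time in that of P2ry12 and 0 times in that of Olfml3, and 42.2% of all 32817 promoters of this length held it. GAGGAA, letters found in PU.1 sites, was also searched on both strands (TTCCTC) and matched in none of the 3, against 23.2% of all promoters. A match or its absence describes these letters only. The bases just after the annotated start were found in a protein-coding GENCODE M21 transcript of the gene for Olfml3 and Siglech. For P2ry12 they were not, so its window may not lie before a start of that annotation.

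Estimated depth ran from 16.6 M reads (wt 7) to 47.0 M (mCAT 1), and 11874 to 12780 genes reached a normalised count of 10. On the first principal component, with 34.5% of the variance, wt 6, mCAT 6, wt 7 and mCAT 7, of code stems C2_2 and C2_4, lay at one end. Library wt 1 lay at the other end and apart on the second component (20.1%).

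Transcripts of all 6 signature genes were above 0 in every library sorted as monocyte-derived macrophages, and 5 of them reached a normalised count of 10 in all 14. Levels between genes were compared per kb of the longest protein-coding transcript (GENCODE M21). Tmem119, a microglial membrane protein, averaged 917 ± 316 normalised counts per kb (SD, n = 14 libraries). Olfml3, a secreted olfactomedin-like protein, averaged 852 ± 717 per kb. P2ry12, the ADP receptor that steers microglial processes, averaged 451 ± 104 per kb. Gpr34, a lysophosphatidylserine receptor, averaged 96.1 ± 80.5 per kb, and Siglech, a sialic acid-binding lectin, 74.1 ± 41.9. Sall1, a zinc-finger transcription factor of microglia, averaged 2.54 ± 2.19 per kb. Over all libraries, Tmem119 and Olfml3 differed by less than their spread, as did Gpr34 and Siglech, but both orders turned with code prefix. Tmem119 and Olfml3 averaged 713 and 339 per kb in C1, and 1190 and 1537 in C2 libraries. Gpr34 and Siglech averaged 39.3 and 58.0 per kb in C1, and 171.7 and 95.6 in C2 libraries. Sall1 lay below Siglech in all 14 libraries. Among 11797 tested genes with a length, Tmem119 stood at percentile 80.1, Olfml3 at 79.2, P2ry12 at 69.3, Gpr34 at 39.8 and Siglech at 35.3. For scale on the same measure, Csf1r averaged 11801 per kb, Cx3cr1 993, and Ccr2, the receptor of inflammatory monocytes, 1932. In bulk samples such as these, fewer cells of a type and less RNA per cell cannot be told apart.

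**Figure D1:**
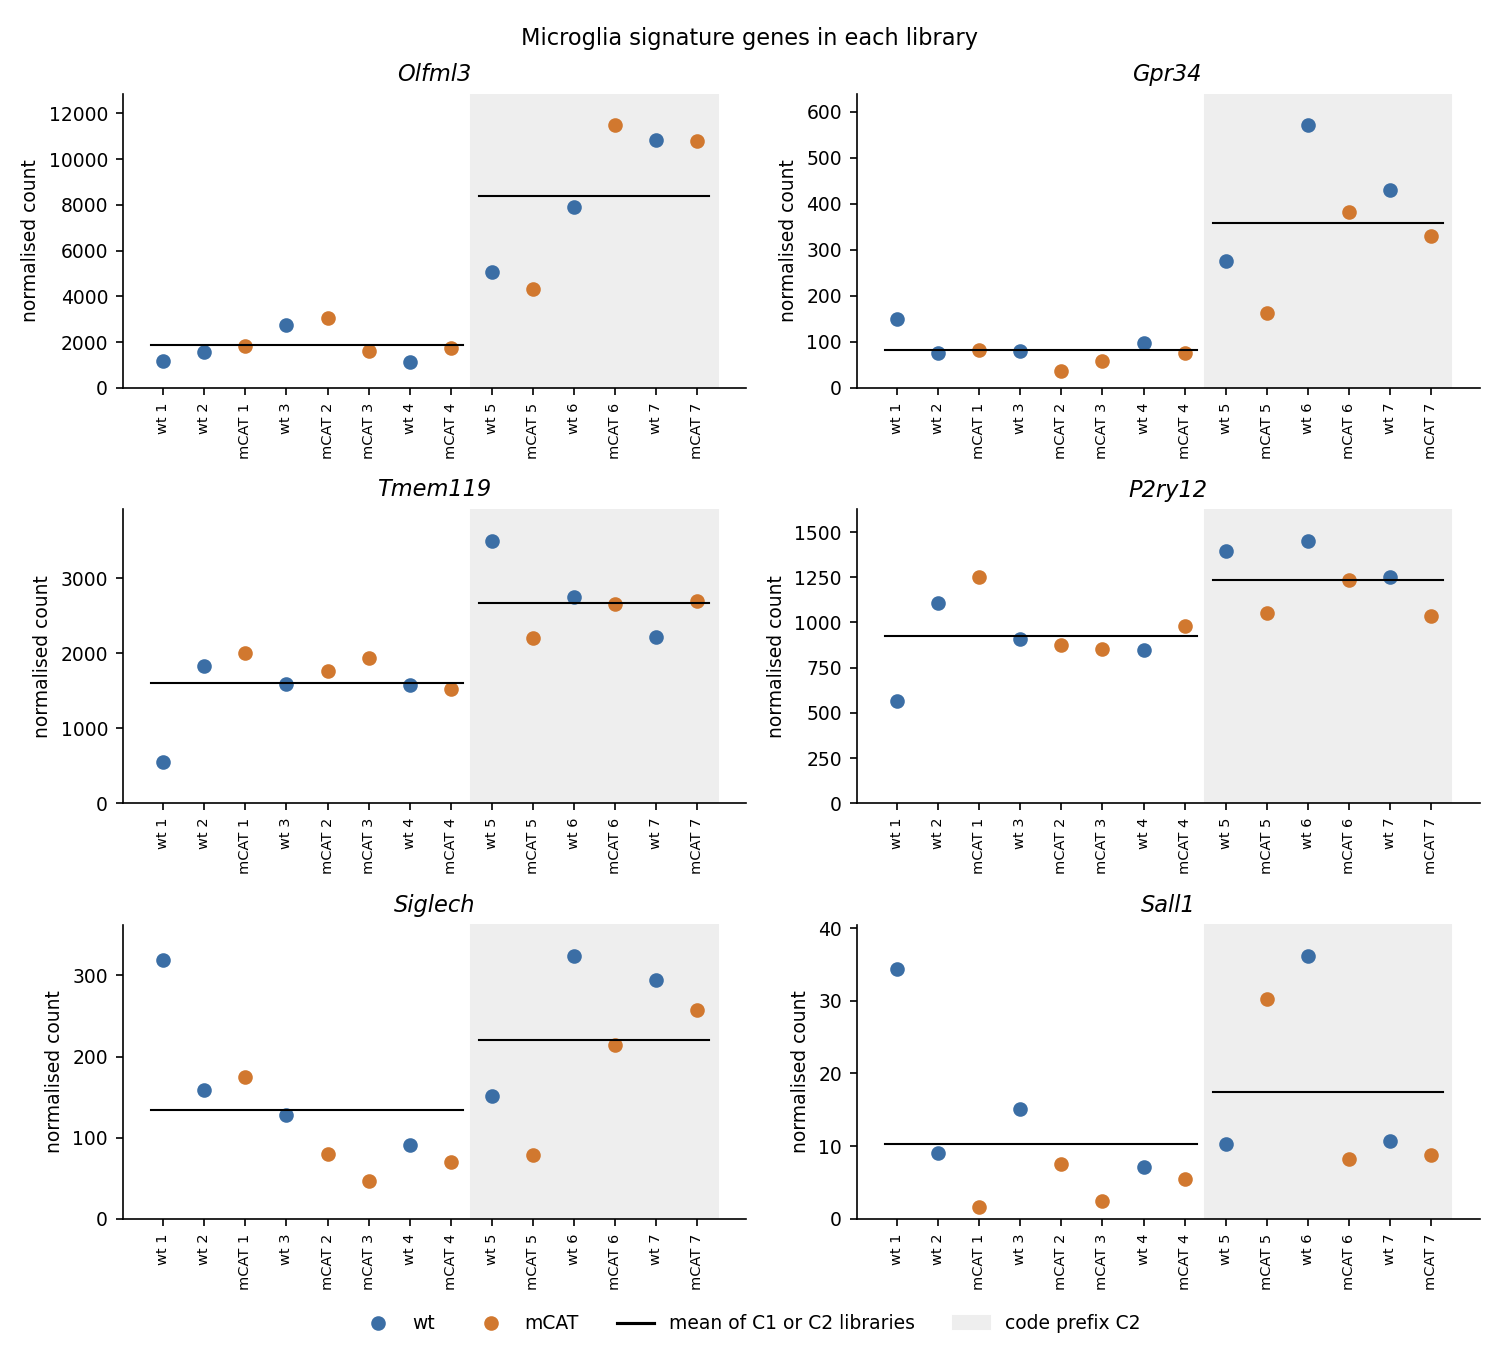
Normalised count of each signature gene (vertical axes, linear from 0) in each of the 14 libraries (horizontal axes, ordered by code stem). Points are libraries, blue for wt and orange for mCAT, black lines are means of the C1 or C2 libraries, and C2 is shaded; every C2 point lies above every C1 point for Olfml3, Gpr34 and Tmem119, and not for P2ry12, Siglech or Sall1.

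No tested signature gene passed the test between genotypes. Of the 5, 0 passed (limma, adjusted p under 0.05), where 24 of 12096 genes (0.198%) did and 649 (5.37%) had an unadjusted p under 0.05. The libraries of the 2 genotypes overlapped in all 5, as they did in all but 29 genes (0.24%). The median log2 difference, mCAT minus wt, of the 5 was -0.00, as was that of all genes tested. With code stem as a block, 39 genes passed (0.322%) and again 0 of the 5.

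P2ry12 averaged 1075 ± 321 normalised counts in wt (SD, n = 7) and 1040.0 ± 158 in mCAT libraries (n = 7), a log2 difference of -0.00 (95% interval -0.36 to 0.35, adjusted p = 0.999). Tmem119 averaged 2001 ± 943 in wt and 2113 ± 439 in mCAT (0.20, -0.38 to 0.78, adjusted p = 0.923). Olfml3 averaged 4339 ± 3785 in wt and 4975 ± 4320.2 in mCAT (0.24, -1.02 to 1.49, adjusted p = 0.964). In these 3 genes the genotypes overlapped almost completely, and for Olfml3 the interval holds differences of more than 2-fold in either direction. Gpr34 averaged 240.01 ± 195 in wt and 161 ± 140 in mCAT (-0.37, -1.14 to 0.39, adjusted p = 0.894). Siglech averaged 209.5 ± 99.0 in wt and 132 ± 82.6 in mCAT (-0.45, -0.96 to 0.06, adjusted p = 0.878). Both receptors had the lower mean in mCAT, by less than the spread between libraries. Leaving out 1 library moved these estimates and turned some: Tmem119 ran from -0.05 (without wt 1) to 0.36 (without wt 5), Olfml3 from -0.03 (without mCAT 6) to 0.53 (without wt 7) and P2ry12 from -0.13 (without wt 1) to 0.07 (without wt 6). Gpr34 ran from -0.55 (without mCAT 6) to -0.18 (without wt 6) and Siglech from -0.57 (without mCAT 7) to -0.34 (without mCAT 3). Without wt 1, Olfml3 was at 0.02, Gpr34 at -0.41 and Siglech at -0.37.

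Between partner libraries, Siglech, Gpr34 and Sall1 were each lower in the mCAT library in 5 of 6 stems, P2ry12 in 4, Tmem119 in 3 and Olfml3 in 2. With the block, the log2 difference was -0.26 for Siglech (adjusted p = 0.534) and -0.31 for Gpr34 (adjusted p = 0.473). It was 0.21 for Olfml3 (adjusted p = 0.576), -0.09 for P2ry12 (adjusted p = 0.798) and -0.03 for Tmem119 (adjusted p = 0.938). Within C1 libraries alone and within C2 libraries alone, 0 of the 5 passed, where 15 (0.124%) and 9 (0.0744%) of all genes did. The interaction of genotype and code prefix passed for 0 of 12096 genes (0%), 103 of which (0.852%) had an unadjusted p under 0.05. P2ry12 was lower in mCAT in all 3 C2 stems and higher in 2 of the 3 C1 stems, with an interaction adjusted p of 0.999 or more under every setting run.

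**Figure D2:**
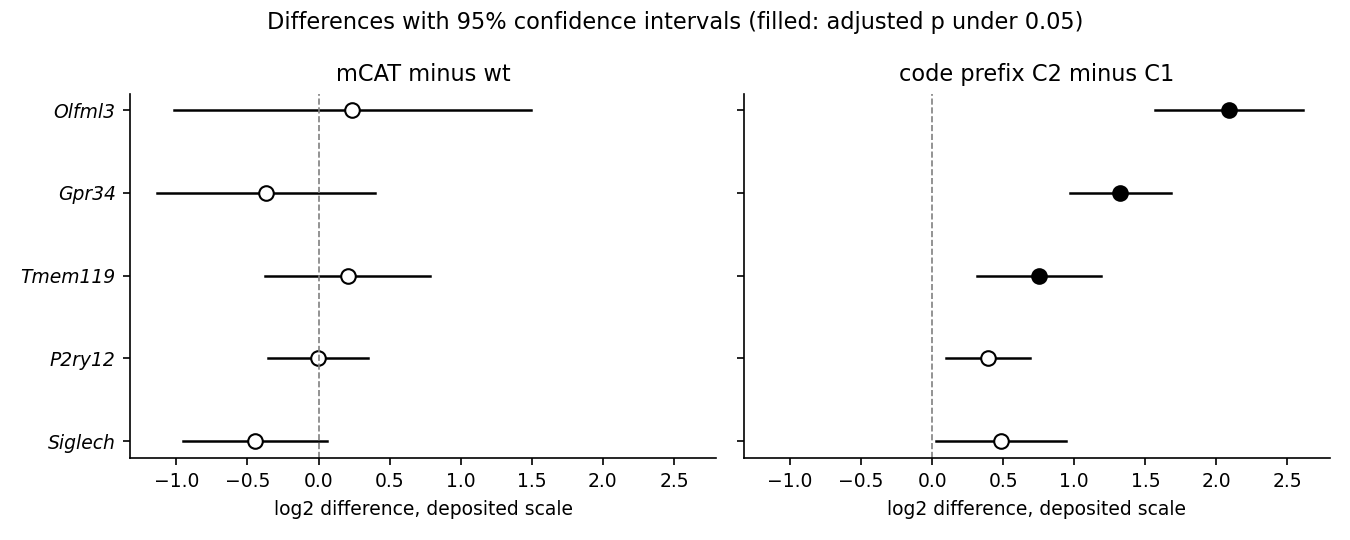
Log2 differences on the deposited scale (horizontal axes) of the 5 tested signature genes (vertical axis) for mCAT minus wt (left) and C2 minus C1 (right). Points are limma estimates with libraries taken as independent, bars 95% confidence intervals, and filled points have an adjusted p under 0.05. No genotype point is filled, while Olfml3, Gpr34 and Tmem119 are filled for the prefix.

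Code prefix, in contrast, went with the level of several signature genes. With genotype as a covariate and libraries taken as independent, Olfml3, Gpr34 and Tmem119 passed as higher in C2 than C1, 3 of 5. Of all genes 7.47% passed, 4.31% as higher and 3.16% as lower in C2. P2ry12 and Siglech did not pass. All 5 estimates were above 0, with a median of 0.75 against -0.01 for all genes tested. In the 3 genes that passed, every C2 library lay above every C1 library, as it did for 169 of 12096 genes (1.4%). The calls of Gpr34 and Tmem119 depend on how libraries are counted. With partner libraries taken as correlated Tmem119 did not pass, and with 1 mean per stem only Olfml3 did, as given below. The intervals and adjusted p that follow for each gene take libraries as independent.

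Olfml3 had normalised counts of 1155, 1563, 2727 and 1138 in the C1 wt libraries and of 1825, 3051, 1602 and 1741 in the C1 mCAT libraries. In C2 it had 5068, 7899 and 10824 in wt and 4336, 11493 and 10774 in mCAT libraries. The C2 libraries of stem C2_1 were the lowest of their prefix in both genotypes, and still above all C1 libraries. The means were 1850.2 ± 693 in C1 (SD, n = 8) and 8399 ± 3129 in C2 (n = 6), 4.54-fold apart, with a log2 difference of 2.09 (95% interval 1.57 to 2.61, adjusted p = 0.000166). Only 6 of the 12096 genes had a larger estimate.

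Gpr34 had 150.2, 74.7, 81.0 and 97.9 in C1 wt and 82.8, 36.0, 57.8 and 76.3 in C1 mCAT libraries. In C2 it had 274.7, 571 and 430.2 in wt and 162.6, 382 and 331 in mCAT libraries. The highest C1 library, wt 1, was close to the lowest C2 library, mCAT 5. The means were 82.1 ± 33.2 in C1 and 358.6 ± 139 in C2, 4.37-fold apart, with a log2 difference of 1.32 (0.97 to 1.68, adjusted p = 0.000234). Gpr34 lies on chromosome X opposite Cask, and the libraries keep no strand, so reads of the 2 genes cannot be told apart where they overlap. Cask averaged 333 ± 163 in C1 and 350.3 ± 120.3 in C2.

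Tmem119 had 550.5, 1835, 1587 and 1577 in C1 wt and 2008, 1766, 1939 and 1520.2 in C1 mCAT libraries. In C2 it had 3500.3, 2746 and 2213 in wt and 2204, 2658 and 2692 in mCAT libraries. Library wt 1 was far below the other C1 libraries, and mCAT 1, the highest of them, was close to mCAT 5. The means were 1598 ± 459 in C1 and 2669 ± 474 in C2, 1.67-fold apart, with a log2 difference of 0.75 (0.32 to 1.19, adjusted p = 0.0368). This call was lost when any of 10 of the 14 libraries was left out, with adjusted p up to 0.0888 (without wt 6).

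P2ry12 ran from 563 (wt 1) through a median of 891 to 1254 (mCAT 1) in C1, and from 1034 through 1242 to 1453 in C2. The prefixes overlapped, and the log2 difference was 0.39 (0.10 to 0.69, adjusted p = 0.0948). Without mCAT 1, P2ry12 passed (adjusted p = 0.0491). P2ry12 varied least of the 6 genes, with a coefficient of variation of 23.0% over all libraries, against 34.5% for Tmem119 and 83.8% for Gpr34. It lies on chromosome 3 opposite Med12l, from which it cannot be told apart by strand, and Med12l averaged 153 ± 57.5 in C1 and 101 ± 38.2 in C2. P2ry13, a related receptor, averaged 2935 ± 507 in C1 and 2799 ± 517 in C2 (-0.07, adjusted p = 0.798).

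Siglech ran from 46.8 (mCAT 3) through a median of 109.5 to 319 (wt 1) in C1, and from 78.4 (mCAT 5) through 236 to 324 (wt 6) in C2. The highest C1 library almost reached the highest C2 library, and the log2 difference was 0.49 (0.03 to 0.94, adjusted p = 0.177). Markers of plasmacytoid dendritic cells, a list that itself holds Siglech, had 11 of 15 genes tested and 0 called. Their summed normalised count was 57395 to 96099 in C1 and 36432 to 84322 in C2 libraries. Of this list, Ly6d, Klk1, Cd300c and Dntt did not pass the filter on low values. The share of single genes in the sum is not given, so the sum does not measure the amount of such cells. The part of such cells in the Siglech level was not tested.

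Sall1, the scarcest of the 6, had 34.3, 9.04, 15.1 and 7.09 normalised counts in C1 wt libraries and 1.58, 7.48, 2.49 and 5.53 in C1 mCAT libraries. In C2 it had 10.3, 36.2 and 10.8 in wt and 30.3, 8.27 and 8.73 in mCAT libraries. Libraries wt 1, mCAT 5 and wt 6 stood above the rest, and 6 of 14 reached 10. These levels stand for about 2 reads in mCAT 1 and 38.5 reads in wt 6, so single libraries are imprecise. The genotypes differed by -0.22 on the log2 scale (exact permutation test over libraries, 2-sided, p = 0.114) and the prefixes by 0.19 (exact permutation p = 0.190), values from tests added after the data were seen. Neither passed. Its relative Sall3 was also scarce, with 0 normalised counts in 3 libraries and at most 19.9.

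How the libraries of a prefix are counted bears on the calls. When the correlation between partners was estimated (0.463), Olfml3 (adjusted p = 0.000236) and Gpr34 (0.00105) passed and Tmem119 did not (0.101), where 2.71% of all genes passed. With 1 mean per stem, 5 against 3, only Olfml3 passed of the 5 (adjusted p = 0.0277), where 0.273% of all genes did, and Gpr34 had an adjusted p of 0.0596. Without stems C2_2 and C2_4 the C2 libraries were 2, and 0 of the 5 passed, where 0.149% of all genes did. The log2 differences were then 1.36 for Olfml3 (adjusted p = 0.173), 0.84 for Gpr34 (0.201), 0.83 for Tmem119 (0.543), 0.38 for P2ry12 (0.695) and -0.06 for Siglech (0.978). Within wt libraries alone Olfml3 passed (2.21, adjusted p = 0.0330, 0.124% of all genes called). Within mCAT libraries alone Olfml3 (1.97, adjusted p = 0.0422) and Gpr34 (1.28, 0.0488) passed, where 0.67% of all genes did. Prefix and any unrecorded difference between C1 and C2 libraries cannot be told apart.

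**Figure D3:**
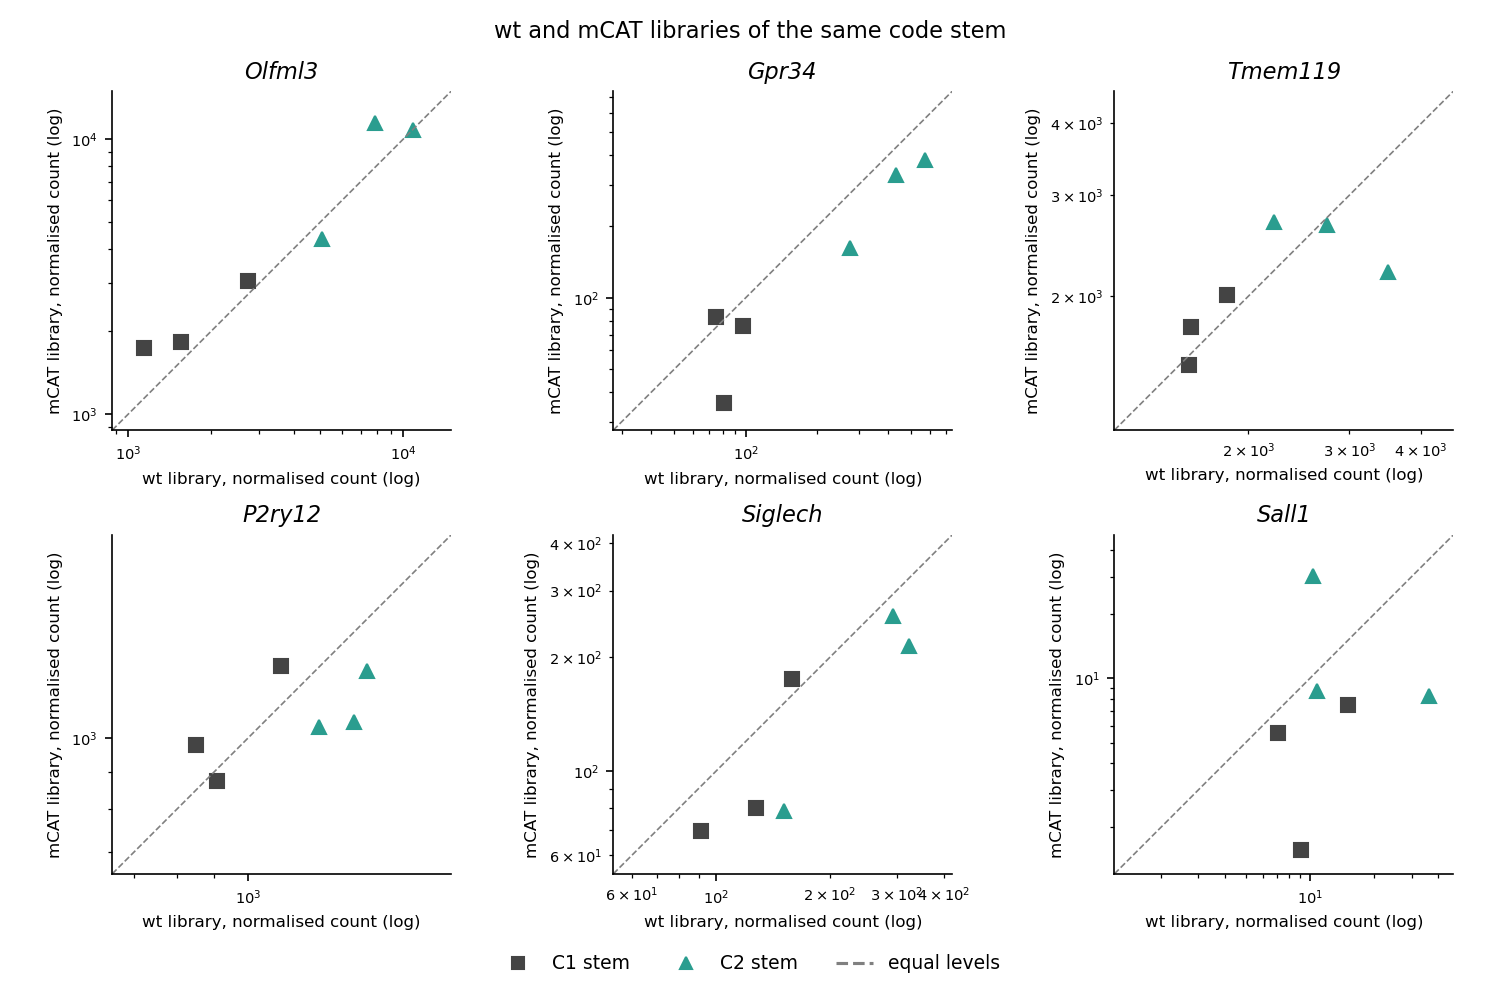
Normalised count in the mCAT library (vertical axes, log) against the wt library (horizontal axes, log) of each of the 6 code stems with both, for each signature gene. Squares are C1 stems, triangles C2 stems and the dashed line marks equal levels; for Gpr34 and Siglech 5 of 6 points lie below the line, and for Olfml3 the points follow it over the whole range.

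The median absolute difference between partner libraries, over the 6 stems with both, was 0.21 (log2) for Olfml3, 0.38 for Gpr34, 0.28 for Siglech, 0.13 for Tmem119, 0.20 for P2ry12 and 0.26 for Sall1. The stems of Olfml3, Gpr34 and Tmem119 separated by prefix, so no correlation over all stems is given for them, and the 3 paired stems of a prefix are too few for one. Siglech correlated between partners with r = 0.892 over 6 stems (exact permutation p = 0.00556, adjusted over 5 genes 0.0139), and rho was 0.886 (exact p = 0.0333, adjusted 0.0833). Without the 2 stems farthest from the median, its r was 0.642. P2ry12 gave r = 0.619 (exact p = 0.2, adjusted 0.2) and rho = 0.6 (exact p = 0.242, adjusted 0.242), and r = -0.22 without the 2 farthest stems. In both genes the pairings were permuted across prefixes, so a level shared by prefix and a level shared by stem cannot be told apart. Stems were themselves taken as pairs from correlations in these same data. Between P2ry12 and Siglech, over 8 stem means, r was 0.00698 (exact p = 0.987, adjusted over 10 pairs 0.987) and rho 0.143 (exact p = 0.752, adjusted 0.836). Without the 2 farthest stems that r was 0.723. One of the stems left out, C1_1, holds wt 1 alone, which had the lowest P2ry12 and the highest C1 Siglech.

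By likeness over the 14 libraries on the log2 values, a description with no test in which prefix is shared by all genes, each member had its own neighbours. Olfml3 was most like Apoe (r = 0.971), the lipid carrier, C1qa (0.971), a complement component, and Ms4a7 (0.964), a gene of monocyte-derived and border macrophages. Gpr34 was most like Tep1 (0.955), Fcrl1 (0.944) and Tyrobp (0.940), the adaptor of TREM2. Tmem119 was most like Rab31 (0.928), Lgmn (0.925), a lysosomal protease, and Tmem37 (0.919). Siglech was most like Lag3 (0.923), Zfp995 (0.911) and Rmdn1 (0.909). P2ry12 was most like 5730455P16Rik (0.926), Usp2 (0.903) and Akr1a1 (0.893). The mean of the 5 tested members was most like Ldhb (0.965), Igf1 (0.963), Camk1 (0.959), Gdf15 (0.958) and Trem2 (0.958). An r above 0.9 was reached with Olfml3 by 71 of 12091 genes, with Gpr34 by 23, with Tmem119 by 5, with Siglech by 3 and with P2ry12 by 2.

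Other genes reported as high in homeostatic microglia were partly higher in C2 as well. Of 26 tested, 9 passed as higher and 0 as lower, where 4.31% and 3.16% of all genes did, with a median log2 difference of 0.30. Cx3cr1, the fractalkine receptor, averaged 1984 ± 869 in C1 and 7761 ± 2508 in C2 (1.96, adjusted p = 0.000197). Fcrl2, whose older symbol is Fcrls, averaged 787 ± 342 and 2806 ± 530.1 (1.76, adjusted p = 0.000167). Abi3 (0.50, adjusted p = 0.00802), Tgfbr1, a TGF-beta receptor (0.89, adjusted p = 0.0159), and Cst3 (0.50, adjusted p = 0.0189) also rose. With the correlation between partners estimated, 4 of the 26 passed (2.71% of all genes), and without stems C2_2 and C2_4, 0 did (0.149%). A list of transcription factors and signalling genes of microglial identity also held Trem2 and its adaptor Tyrobp. Of its 22 tested genes, 5 were higher (among them Trem2, Tyrobp, Mef2c and Bhlhe41) and 1 lower, with a median of 0.07. With the correlation estimated 4 passed, all higher, and without both stems 0. The lower one, named after its value was seen, was Runx1 (-0.53, adjusted p = 0.0127). Lists share some genes, whose calls are counted in each. Tgfbr1 is in both lists given here. Trem2 is also in the list of disease-associated microglia below, and Tyrobp in that of genes shared by macrophages. Csf1r averaged 52333 ± 14026 in C1 and 59671 ± 16702 in C2 (0.19, adjusted p = 0.546).

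Genes of other macrophage lists were called between prefixes too, against the same 4.31% higher and 3.16% lower of all genes. Of 16 genes of disease-associated microglia, which lipid-handling macrophages also express, 9 were higher and 1, Ccl6, was lower (named after its value was seen). Igf1 averaged 31.8 ± 15.4 in C1 and 489.6 ± 282 in C2 (2.11, adjusted p = 0.000470), and Apoe and Fabp5 rose by 1.85 and 1.29. Of 12 genes shared by macrophages, 7 were higher and 0 lower, among them C1qa (1.05, adjusted p = 0.00183). Of 23 genes of monocyte-derived macrophages, 2 were higher and 4 lower, with a median of -0.33. Ms4a7 (1.87) and Lyz2 (1.43) were higher, and Nos2 (-2.08), Anxa2 (-0.77) and Arg1 (-0.99) were among the lower. Ccr2 averaged 11831 ± 3799 in C1 and 10048 ± 6202 in C2 (-0.33, adjusted p = 0.414). Of 11 border macrophage genes, Colec12 and Pf4 were higher and Ccl24 lower. With the correlation between partners estimated (2.71% of all genes called), 6 of the 16 were higher and 1 lower, 4 of the 12 higher, 2 of the 23 higher and 3 lower, and 1 of the 11 higher. Without stems C2_2 and C2_4 (0.149% of all genes called), 1 of the 23 was higher and 0 of the other lists passed.

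**Figure D4:**
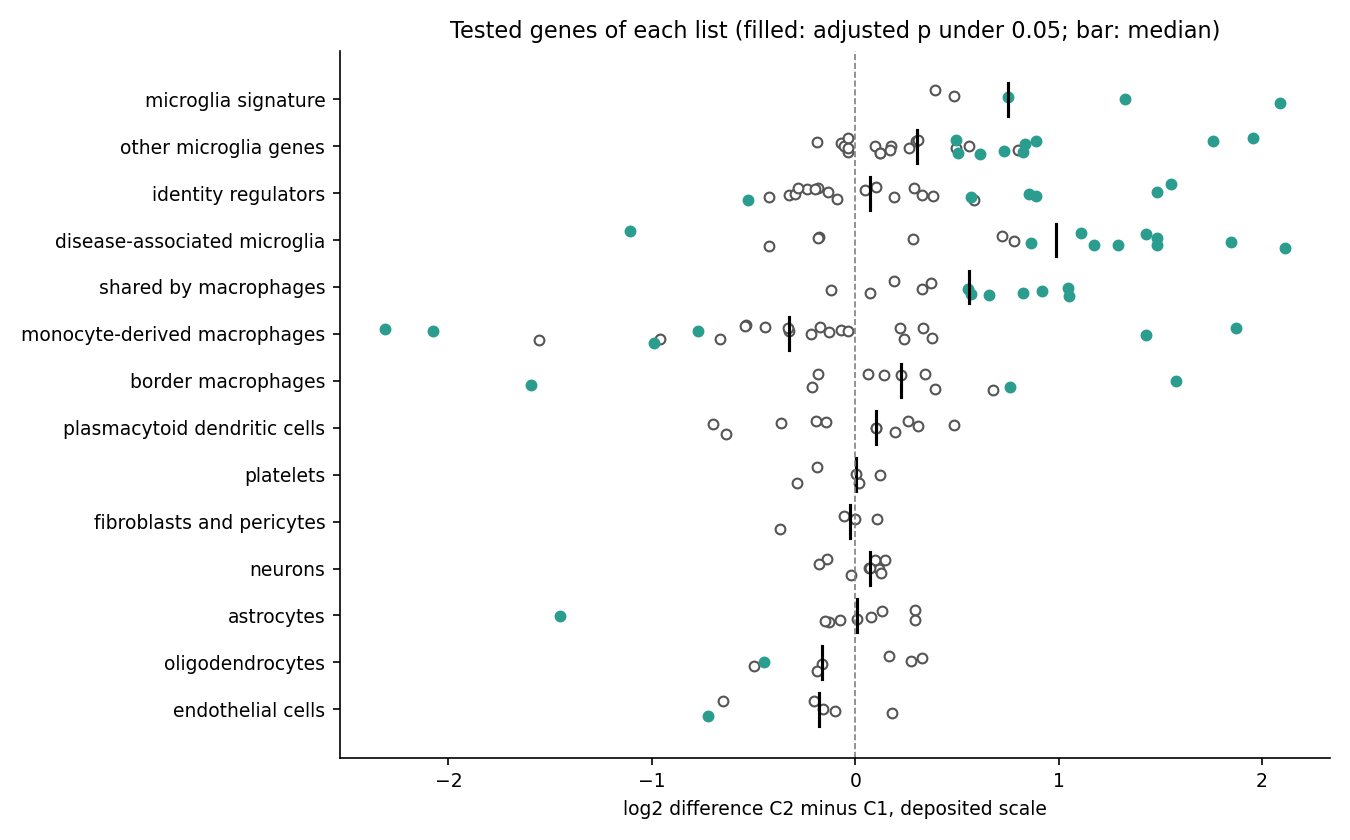
Log2 difference C2 minus C1 on the deposited scale (horizontal axis) of the tested genes of each list (vertical axis). Points are genes, filled where the adjusted p is under 0.05, and black bars are medians; the signature genes have a median of 0.75 and the monocyte-derived macrophage genes of -0.33.

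Lists of markers of other cell types were short. At 7.47% of all genes called, such lists would hold few or no calls in any case. Platelet markers, measured beside P2ry12, had 0 of 5 tested genes called and summed to 217 to 511 normalised counts in C1 and 190.5 to 467 in C2. Fibroblast and pericyte markers, measured beside Olfml3, had 0 of 4 called and summed to 92.7 to 379.6 in C1 and 86.0 to 259.7 in C2. Olfml3 itself had 1138 or more in every library. The part of such cells in the P2ry12 and Olfml3 levels was not tested. Neuron and T cell markers had 0 of 9 and 0 of 11 called, and mast cell markers 0 of 2. Single genes were lower in C2 among markers of astrocytes (Slc1a2), oligodendrocytes (Olig1), endothelial cells (Flt1) and neutrophils (Cxcr2), and 2 among those of conventional dendritic cells (Flt3, Zbtb46). Of 6 B cell markers, Cd79b was higher. No marker of these lists was at 0 in every library. Over all libraries, astrocyte markers summed to 3385 to 5855 normalised counts and oligodendrocyte markers to 4412.5 to 10575. Endothelial markers summed to 1328 to 4913 and neutrophil markers to 10186 to 40213. Neuron and T cell markers summed to less, 181 to 931 and 232 to 1164. Every astrocyte marker passed the filter on low values, while Mog, Olig2 and Sox10 of oligodendrocytes and Cdh5 and Tek of endothelial cells did not. The share of single genes in these sums is not given, so the sums do not measure the amount of any cell type. Between genotypes, 0 genes of any list passed without the block, where 0.198% of all genes did. With it, Gpnmb and Mmp8 were higher and Ccr2 lower in mCAT (Ccr2 -0.80, adjusted p = 0.00587), where 0.322% of all genes passed. The mCAT donors carry the recombinase at the Ccr2 gene itself. For Ccr2, effects of that allele and of the catalase cannot be told apart.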

How the data were processed

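RNA-seq values were taken from 1 deposited table of 14 libraries, 7 wt and 7 mCAT, made with the Smart-seq2 protocol and paired reads of 150 bases, per the labels' protocols. The submitters' processing notes name FastQC, fastp, Salmon and GRCm39; the annotation and tool versions were not given in the sources. Values in the deposited table are on a log2 scale, with no whole numbers and 1 lowest value shared by all libraries, as a variance-stabilising transformation gives. Its closed form was inverted with a constant (249.7) derived from that lowest value (5.96), to give normalised counts. Read depth was estimated from the size of 1 read and is rough.

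Genes at a normalised count of at least 10 in at least 7 libraries were tested with limma 3.58.1 in R 4.3.3 on the deposited log2 values, with a mean-variance trend and robust moderation (statmod 1.5.0). P-values were 2-sided and adjusted by Benjamini-Hochberg over all 12096 genes, with a threshold of 0.05. The fits were genotype, code prefix with genotype as a covariate, and their interaction. Exact permutation tests and correlations used scipy 1.17.1 and pandas 2.3.3 in Python 3.11.15. The fit was tested on simulated data. Lengths came from GENCODE M21. Promoters were searched for the motifs named in the text. Another spelling of the PU.1 letters was tried after the sequences had been read; it was dropped, and is not reported, because it had been picked with them in view.

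The titles number the libraries 1 to 7 in each genotype, apart from 1 wt title with no number, taken as 1. Deviations from the group means correlated at 0.232 to 0.659 between the 6 pairs of libraries that share a code stem, and at -0.294 to 0.641 between those that share a title number. The stem was taken to pair libraries, which the labels do not state. The 6 genes, the lists and the tests were chosen with earlier results of these data known. Named from each list were genes called in the genotype or prefix fit (at most 4, by p) and the 2 tested genes with the highest mean, apart from genes said to be named after their values were seen; called genes of short counts were named in full, apart from genes not reported here. Alternatives were other filters, scales, centrings and blocks, and leaving out libraries. Fits within 1 prefix or 1 genotype were added after seeing the data.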

Additional observations from a re-analysis of the deposited data

Results flagged for a closer look

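In 24 groups of 6 to 8 libraries (each signature gene in wt, mCAT, C1 and C2), 4 had an extreme library whose gap to its neighbour, in normalised counts, was a larger share of the group's range than Dixon's 95% limit. Chance gives about 1 in 20 independent groups of normally distributed values, or 1.2 of 24. The groups here share libraries, so the 4 found against 1.2 do not measure an excess. On the deposited log2 values, a scale added after the data were seen, 2 of these 4 were past the limit and no others. Tmem119 was lowest in wt 1 among C1 libraries, with a gap of 0.665 of the range (0.775 on the log2 values). Siglech was highest in wt 1 among C1 libraries, with a gap of 0.529 (0.38, under the limit). Sall1 was also highest in wt 1 among C1 libraries, with a gap of 0.588 (0.421, under the limit). Sall1 was highest in mCAT 5 among mCAT libraries, with a gap of 0.751 (0.594). Library wt 1 stood apart on both principal components, and its part in these gaps was not tested.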

How the results depend on the processing

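Of the 5 tested genes, 0 passed between genotypes under all 27 alternatives run, and 0 passed the interaction under all 23. Over all genes, the genotype count was 24; it was 18 to 25 leaving out each library, 15 within C1, 9 within C2 and 39 with the replicate block by code stem. Blocked by code stem, the fit changed no signature gene's call; a block by title number, which joins the same libraries as the stem for numbers 4 to 7 and others for 1 to 3, gave 25.

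For the prefix, the count over all genes was 903 and the number of the 5 genes called was 3. Leaving out each library gave 396 (without wt 6) to 1544 (without wt 5) genes and 2 to 4 of the 5. Without mCAT 3, wt 4, mCAT 4, mCAT 5, mCAT 6, wt 7 and mCAT 7 the count was 597, 566, 543, 1365, 441, 406 and 421. It was 328 with the correlation between partners estimated, 33 with 1 mean per stem (1 of the 5), 18 without stems C2_2 and C2_4 (0 of the 5), 15 within wt (1 of the 5) and 81 within mCAT libraries. The last 4 use fewer samples; otherwise the cause was not tested. Olfml3 passed in 25 of 26 alternatives, Gpr34 in 23 and Tmem119 in 11, all in the same direction. Siglech, not called, was below 0 in 1. The fits within 1 genotype or prefix were chosen after seeing the data. Sall1, fitted without a filter, did not pass (adjusted p = 0.892 between genotypes, 0.515 between prefixes).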
